A study of Mus musculus with 6 samples.

Results

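The HOX, MEIS and PBX homeobox genes were taken as every protein-coding row of the deposited gene table named Hoxa, Hoxb, Hoxc or Hoxd with a number, or Meis or Pbx with a number. Of the 54532 rows of the table, 45 such rows are described, namely 39 Hox, 3 Meis and 3 Pbx rows, under 44 gene names because Hoxd4 was listed under a pair of Ensembl identifiers. The libraries came from GFP+ leukemia cells sorted from mouse bone marrow, 3 from each of 2 groups. In both groups Lin- cells of E14.5 fetal liver from male donors had been transduced with a retrovirus carrying GFP and RUNX1-ETO9a (RE9a), a short splice form of the fusion protein of human t(8;21) leukemia, and were serially transplanted into male recipients. In WT Phf6,RE9a the donors were Phf6 fl/y, with an intact floxed allele of Phf6, an X-linked gene for a chromatin protein. In VC Phf6,RE9a the donors were Vav1-Cre;Phf6 fl/y, in which Cre under the Vav1 promoter deletes Phf6 in blood cells. Both groups therefore carried the floxed allele and RE9a, and they differed in Cre as well as in Phf6. The deposited titles call the libraries WT and KO, and they are called WT and VC libraries below. Nothing in the labels ties a library to its own leukemia or mouse, so p-values measure only the spread between these libraries, which may be technical.

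Hox genes code for transcription factors that set position along the body axis of the embryo. They lie in 4 clusters, and their order on the chromosome follows the order in which they are used along the axis, with low-numbered genes at the 3′ end of a cluster. Blood stem and progenitor cells express a part of the Hoxa, Hoxb and Hoxc genes and lower them as they mature, and high HOXA9 with MEIS1 is a hallmark of leukemias with MLL or NPM1 lesions, while t(8;21) leukemias are known for low levels. HOX proteins bind DNA with weak specificity alone, and they gain it by pairing with PBX and MEIS proteins, which belong to the TALE class with a longer homeodomain. MEIS proteins also bind PBX directly and keep it in the nucleus.

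In every library the homeobox program was narrow. Of the 45 rows, 30 held no more than 3 counts in any library and are called silent here, 4 passed 3 counts in some library but were too low to be tested, and 11 were tested. Of the 11 tested, Hoxc4, Hoxc5, Hoxc6 and Pbx2 were higher and Hoxc9, Hoxb13, Meis2, Meis3 and Pbx3 were lower in VC Phf6,RE9a than in WT Phf6,RE9a by edgeR's quasi-likelihood test at an adjusted p under 0.05, while Meis1 and Pbx4 were not called. Among all 14169 genes tested, 21.5% were called higher and 22.7% lower, so that a call in this comparison was common. The groups did not overlap for 9 of the 11 members, and for 57.3% of all genes tested. The median log2 fold change of the 11 was -0.46 against 0.013 for all genes, with both signs among the members.

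The deposited count table summed to between 15675358 and 16817994 counts a library, and 3 counts, the limit that a count of 0 allows, stood for 0.175 to 0.204 CPM (counts scaled to a common library size by TMM). This limit covers counting error only. Phf6 itself, at chrX:52912266-52956943, held 1044, 827 and 1142 counts in the WT libraries and 388, 314 and 331 in the VC libraries, a log2 fold change of -1.66 (SE 0.13) with an adjusted p of 9.32e-05 by edgeR. It was thus lower but not absent in all 3 VC libraries, whose deposited titles say KO. Cell type markers also differed between the groups. The summed level of 11 mast cell and basophil markers was 19460 to 30760 CPM in the WT libraries and 4974 to 5428 in the VC libraries, with 10 of 11 called lower. Of 12 stem and progenitor markers, which share Kit and Gata2 with that list, 9 were tested, with 2 higher and 5 lower. The sum of all 12 was 3476 to 4882 CPM against 1188 to 1314. All 8 erythroid markers were higher (1482 to 2237 against 5089 to 5961 CPM), as were 15 of 16 granulocyte and monocyte maturation markers (211 to 626 against 1190 to 4195 CPM) and 5 of 8 B cell markers (0.814 to 1.69 against 14.2 to 31.8 CPM). Only these 5 B cell markers were high enough to be tested. Of the T cell list only 1 of 9 was tested, and it was higher (list sum 1.23 to 2.06 against 7.55 to 11.04 CPM). Of 10 megakaryocyte markers 6 were tested, with 3 higher and 2 lower (385 to 462 against 215 to 256 CPM), and Gp1bb was at 0. Of 12 stromal and endothelial markers 4 were tested, with 2 higher and 1 lower (2.78 to 6.88 against 7.72 to 19.6 CPM). Col3a1 and Emcn were at 0 in every library. The sums of all 8 lists were apart between the groups, as the called members were. In an alternative chosen after the data were seen, each sum was taken without the gene that differed most, and 2 of the 8 then overlapped. These were the stromal and endothelial list without Tek (2.78 to 6.88 against 6.12 to 6.93 CPM) and the megakaryocyte list without Itga2b (168 to 220 against 200.5 to 242 CPM). The part of the markers in the member results was not tested. Fewer cells of a type and less RNA per cell cannot be told apart in bulk libraries.

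The homeobox is the part of each gene that codes for the DNA-binding homeodomain. It is shown for 1 called member of each family, from the longest coding transcript in GENCODE M21 on GRCm38, 5′ to 3′ on the coding strand. Capitals mark the codons for tryptophan, phenylalanine, a residue that varies between the families, and asparagine, in the helix that lies in the major groove of DNA.
Hoxc4 homeobox: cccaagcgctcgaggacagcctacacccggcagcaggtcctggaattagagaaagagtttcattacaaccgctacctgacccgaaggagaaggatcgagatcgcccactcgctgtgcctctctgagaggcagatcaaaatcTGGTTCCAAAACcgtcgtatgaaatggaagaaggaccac
Meis2 homeobox: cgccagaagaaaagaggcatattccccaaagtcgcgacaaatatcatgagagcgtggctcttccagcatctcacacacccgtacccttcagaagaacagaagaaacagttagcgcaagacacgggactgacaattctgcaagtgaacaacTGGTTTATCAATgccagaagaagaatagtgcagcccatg
Pbx2 homeobox: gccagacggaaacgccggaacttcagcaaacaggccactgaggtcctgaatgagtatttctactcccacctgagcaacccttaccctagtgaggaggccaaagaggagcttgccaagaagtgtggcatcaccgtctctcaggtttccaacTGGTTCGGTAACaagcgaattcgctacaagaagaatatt
The Hoxc4 homeobox covered 180 bases of a single exon at chr15:103035663-103035842. The longer TALE homeobox covered 189 bases spread over 3 exons, between chr2:115868767-116000205 on the minus strand for Meis2 and between chr17:34594424-34594848 on the plus strand for Pbx2.

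The stretch of 30 bases that opens with the same codons is shown for the 11 tested members and for Hoxb4, because it separates the families by eye. For the Hox genes the third codon in capitals was CAG, or CAA in Hoxc4.
Hoxb4: TGGTTCCAGAATcggcgcatgaagtggaaa
Hoxc4: TGGTTCCAAAACcgtcgtatgaaatggaag
Hoxc5: TGGTTCCAGAACcgcaggatgaagtggaag
Hoxc6: TGGTTCCAGAACcgccgcatgaagtggaaa
Hoxc9: TGGTTTCAGAACcggaggatgaagatgaaa
Hoxb13: TGGTTTCAGAACcgccgggtcaaggagaag
In the Meis genes that codon was ATT or ATC.
Meis1: TGGTTTATTAATgcccggagaagaatagtg
Meis2: TGGTTTATCAATgccagaagaagaatagtg
Meis3: TGGTTTATTAATgcccggagacgaatagtg
In the Pbx genes shown it was GGT or GGC.
Pbx2: TGGTTCGGTAACaagcgaattcgctacaag
Pbx3: TGGTTTGGCAACaaacgaatcaggtacaag
Pbx4: TGGTTTGGCAACaaaagaatccggtacaaa
Over the whole homeobox, the 6 Hox genes shown shared 47.8% to 82.2% of their bases in 15 pairs, with Hoxb4 and Hoxc4, members of the same paralogue group, at the top and Hoxb13 and Hoxc5 at the bottom. The 3 Meis pairs shared 82.0% to 84.7% and the 3 Pbx pairs 79.4% to 82.5%, while Meis against Pbx shared 44.4% to 53.4%. How reads that fit more than 1 gene were counted is not given in the sources used here.

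Silence was most of what the Hox clusters showed. Of the 39 Hox rows, 24 held 0 counts in all 6 libraries and 6 more, Hoxa2, Hoxa3, Hoxa5, Hoxa6, Hoxb3 and Hoxb8, held at most 1 or 2 counts in any library. No Meis or Pbx gene described here was silent. The silent share of Hox rows was 76.9%, against 80.4% of the 184 other protein-coding rows that the table assigns to the Homeobox family and 38.1% of all 22046 protein-coding rows. Silence was therefore about as frequent among the Hox genes as among other homeobox genes.

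**Figure D1:**
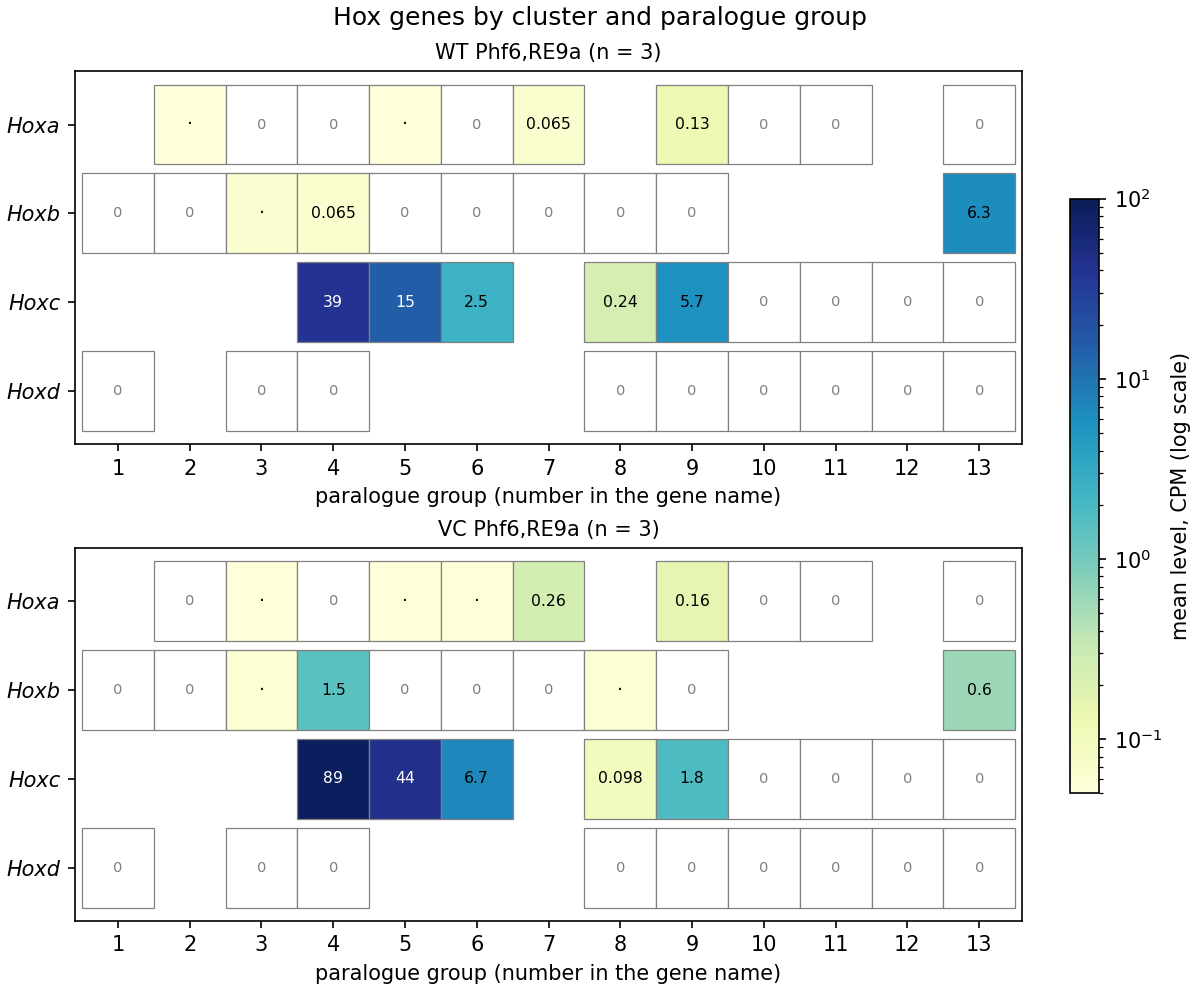
Hox genes arranged by cluster (rows) and paralogue group (columns), with the mean level of 3 libraries per group in CPM as colour on a log scale and as a printed value. A grey 0 marks a gene with no count in that group, a point marks a silent gene with 1 to 3 counts in some library, empty places hold no value, and Hoxd4 stands for both of its rows. Levels over 1 CPM occur for Hoxc4, Hoxc5, Hoxc6 and Hoxc9, for Hoxb13 in the WT libraries and for Hoxb4 in the VC libraries, while the whole Hoxd row is at 0.

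The Hoxd cluster, chr2:74668310-74765142, was listed at 0 in every library for all 10 rows, Hoxd1, Hoxd3, both Hoxd4 rows, Hoxd8, Hoxd9, Hoxd10, Hoxd11, Hoxd12 and Hoxd13. Other genes on the same strand cover 62.3% of the Hoxd3 exon bases and 52.3% of those of the Hoxd4 model in GENCODE M21. Hoxb3os, on the opposite strand, covers 52.9% of the Hoxb3 exon bases. Whether reads in such shared stretches were counted is not known, so silence is less certain for these genes. The Hoxa cluster, chr6:52162417-52260880 for the genes described, had 8 silent genes of 10. Hoxa4, Hoxa10, Hoxa11 and Hoxa13 were at 0, and all 10 genes together collected 38 counts over the 6 libraries. In the Hoxb cluster, chr11:96194316-96368256, 8 of 10 genes were silent, with Hoxb1, Hoxb2, Hoxb5, Hoxb6, Hoxb7 and Hoxb9 at 0. In the Hoxc cluster, chr15:102921103-103036852, 4 of 9 were silent, and these were Hoxc10, Hoxc11, Hoxc12 and Hoxc13, the neighbouring genes at its 5′ end, all at 0. The Hoxc cluster held 10189 of the 10639 counts of the 39 Hox rows.

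Hoxa9, at chr6:52223100-52231089 and the Hox gene best known in leukemia, was at the limit of detection in both groups. It had 2, 1 and 3 counts in the WT libraries and 2, 4 and 2 in the VC libraries. The groups overlapped, and the ratio of depth-scaled sums was 1.22 with an exact 95% interval of 0.372 to 4.27 for counting error, so that no difference was detectable at this depth. Hoxa7, its neighbour, had 0, 2 and 1 counts against 3, 4 and 6, which did not overlap, with a ratio of 3.97 (1.09 to 21.7, again for counting error). Where an alternative let Hoxa7 in, it was not called. Its adjusted p was 0.2425 in edgeR with no filter and 0.349 in DESeq2. An antisense gene, Hoxaas3, covers 20.4% of the Hoxa7 exon bases, and whether reads were counted by strand is not stated. Hoxaas3 itself was listed at 0 in every library. Hoxc8 had 6, 2 and 3 counts against 1, 2 and 2, a ratio of 0.417 (0.113 to 1.30).

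Hoxb4, at chr11:96318267-96321638 and known for expanding blood stem cells when over-expressed, was the low member with the clearest difference. There were 0, 2 and 1 counts in the WT libraries and 23, 47 and 7 in the VC libraries. All WT libraries were within the limit of 3 counts and all VC libraries were above it. The ratio of sums was 23.5 with an exact interval of 7.75 to 117. This interval covers counting error only and leaves out the spread between libraries, which was 6.58 times within the VC group. The filter on low counts kept Hoxb4 out of the edgeR test. Where an alternative let it in, its log2 fold change was 4.39 in edgeR with no filter (adjusted p = 0.00197) and 4.54 in DESeq2 (adjusted p = 0.000646). It also passed the filter and was called without any 1 of the WT libraries or without VC replicate 13 (log2 fold changes 3.86 to 5.28, edgeR adjusted p = 0.00365 to 0.0313). It was not tested without VC replicate 11 or 12. In these fits Hoxb4 passed the filter only through VC replicates 11 and 12, where it was high, so their calls add no separate support.

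Hoxc4 and Hoxc5, at the 3′ end of the Hoxc cluster, had the highest Hox levels per kb in both groups, and both were higher in the VC libraries, as was their neighbour Hoxc6. Hoxc4, at chr15:103018934-103036852, is expressed in lymphoid and early blood cells. It had 594, 429 and 800 counts in the WT libraries and 1521, 1343 and 1684 in the VC libraries. The groups did not overlap, with means of 38.7 ± 9.66 and 89.4 ± 10.9 CPM (SD, n = 3 here and below). The log2 fold change was 1.21 (SE 0.18, edgeR adjusted p = 0.00168).

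Hoxc5 had 168, 215 and 335 counts in the WT libraries and 689, 731 and 843 in the VC libraries. Every VC library was above every WT library. The level went from 15.3 ± 4.72 to 44.5 ± 4.97 CPM, a log2 fold change of 1.54 (SE 0.22, edgeR adjusted p = 0.00116). Its gene model, chr15:102967443-103017429, starts upstream of Hoxc9 and shares 5.4% of its exon bases with Hoxc10 on the same strand, and Hoxc10 was at 0.

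Hoxc6, at chr15:102998257-103011881, varied more between libraries. It had 19, 44 and 55 counts against 110, 155 and 78, again without overlap. The means were 2.52 ± 1.12 and 6.72 ± 2.21 CPM, with a log2 fold change of 1.41 (SE 0.41, edgeR adjusted p = 0.0264). The call was lost without VC replicate 11 (log2 fold change 1.44, edgeR adjusted p = 0.0621) and without replicate 12 (1.14, edgeR adjusted p = 0.0954), and over all alternatives the adjusted p ran from 0.00364 to 0.0954.

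Hoxc9 and Hoxb13, which lie further 5′ in their clusters, went the other way. Hoxc9, at chr15:102976439-102985099, had 69, 92 and 106 counts in the WT libraries and 43, 26 and 24 in the VC libraries, with no overlap. It fell from 5.71 ± 1.07 to 1.83 ± 0.618 CPM, a log2 fold change of -1.64 (SE 0.32, edgeR adjusted p = 0.00467). Within 1 cluster, therefore, Hoxc4, Hoxc5 and Hoxc6 rose and Hoxc9 fell, with Hoxc8 between them near the limit of detection.

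Hoxb13, a gene of the last paralogue group that is best known from prostate and hindgut, stood alone in its cluster. Its model, chr11:96194316-96197447, is the 5′ end gene of the Hoxb cluster, 170.8 kb from the 3′ edge, and the genes Hoxb5 to Hoxb9 between it and Hoxb4 were silent. It had 56, 126 and 110 counts in the WT libraries and 7, 22 and 2 in the VC libraries. The groups did not overlap, although the VC libraries spread over 10.8 times among themselves. The level fell from 6.28 ± 2.48 to 0.605 ± 0.605 CPM, a log2 fold change of -3.36 (SE 0.67, edgeR adjusted p = 0.00561), and 3.9% of all genes tested had a larger change in either direction. Without VC replicate 12 the log2 fold change was -4.52 (edgeR adjusted p = 0.00364).

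**Figure D2:**
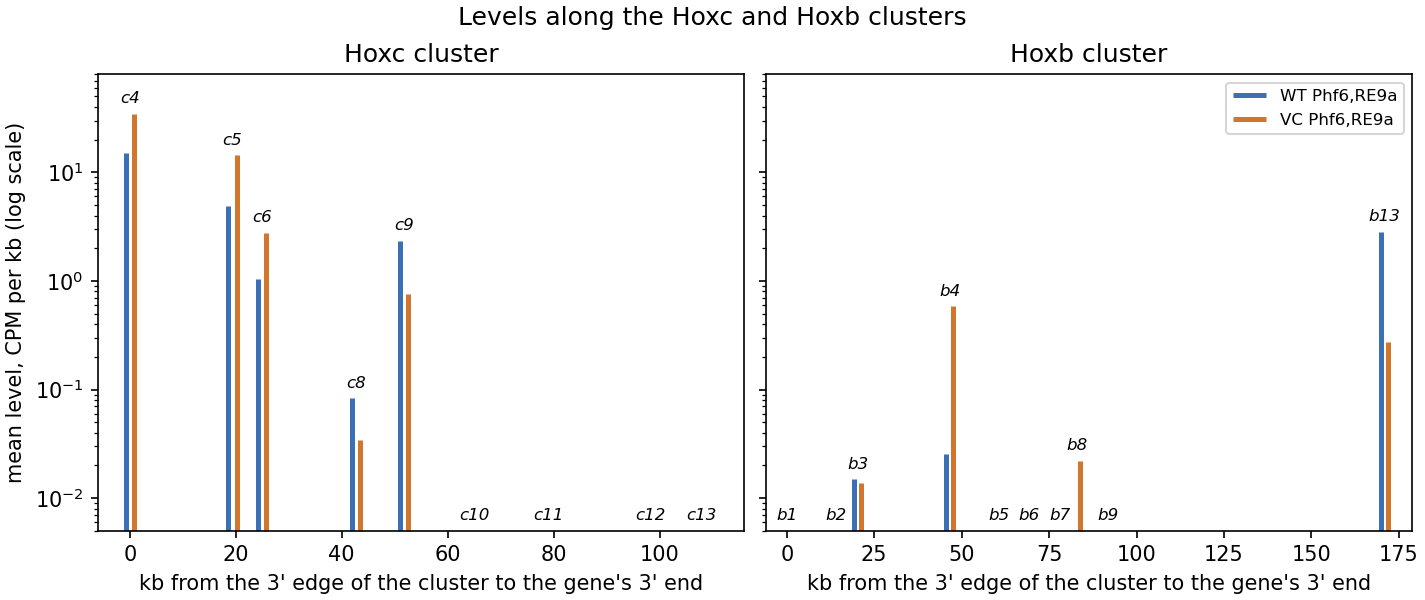
Mean level of each gene in CPM per kb of gene length (log axis) at its distance in kb from the 3′ edge of the Hoxc (left) and Hoxb (right) cluster, for WT Phf6,RE9a and VC Phf6,RE9a, 3 libraries each. Names with no bar had no counts. In the Hoxc panel the VC bar is the taller for c4, c5 and c6 and the shorter for c8 and c9, and in the Hoxb panel only b13 and, in the VC libraries, b4 rise clear of the lowest values.

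The other deposited rows within the 4 clusters, 41 of any biotype, held 38 silent rows (92.7%) and 34 at 0. Gm27605, a misc_RNA row at chr11:96200176-96200311 on the strand opposite to Hoxb13 and past its 3′ end, had 34, 42 and 35 counts against 11, 16 and 11. It fell by 1.67 on the log2 scale (SE 0.32, edgeR adjusted p = 0.00438), in the same direction as Hoxb13. A processed pseudogene, Gm11539, was tested and not called (log2 fold change 0.42, edgeR adjusted p = 0.445). Gm27898, another misc_RNA row beside Gm27605, had 5, 10 and 5 counts against 1, 6 and 1 and was too low to test. No other row of the Hoxa, Hoxc or Hoxd cluster passed 3 counts in any library.

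The MEIS genes, whose products pair with HOX and PBX proteins on DNA, were all detected, and Meis2 had the highest level of the 3 per kb of gene length in every library. Meis2, at chr2:115863064-116065839, had 2620, 2046 and 2230 counts in the WT libraries and 1002, 994 and 1187 in the VC libraries. No library of one group reached the other. The level fell from 148 ± 19.3 to 62.5 ± 6.95 CPM, a log2 fold change of -1.24 (SE 0.12, edgeR adjusted p = 0.000246).

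Meis3 had the largest fitted change of the 11 tested members. The gene, at chr7:16175090-16186504, had 185, 251 and 158 counts in the WT libraries and 11, 18 and 9 in the VC libraries. All VC libraries were far under all WT libraries. The level fell from 12.9 ± 3.81 to 0.744 ± 0.270 CPM, a log2 fold change of -4.10 (SE 0.36, edgeR adjusted p = 0.000144). In all, 2.6% of the genes tested had a larger change in either direction.

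Meis1, the family member that cooperates with Hoxa9 in leukemia, was low and was not called. It had 66, 77 and 80 counts in the WT libraries and 68, 155 and 35 in the VC libraries, so that the 3 WT libraries lay inside the range of the VC ones. The means were 4.78 ± 0.472 and 5.04 ± 3.59 CPM (log2 fold change 0.08, SE 0.48, edgeR adjusted p = 0.914). The sign turned without VC replicate 12 (log2 fold change -0.65, edgeR adjusted p = 0.214). Exons of Gm37818 on the same strand cover 9.8% of the Meis1 exon bases and exons of Gm16140 on the opposite strand 8.5%.

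VC replicate 12 was the highest library of its group for Meis1, Meis3, Hoxb13, Hoxb4, Hoxc6 and Pbx3, that is for 6 of the 12 members with 10 counts or more in some library, while replicate 13 was highest for 5 and replicate 11 for 1. Tek, an angiopoietin receptor of endothelial and stem cells, had no count in the WT libraries and 72, 217 and 27 counts in VC replicates 11, 12 and 13. All 6 members that were highest in replicate 12 had this same order. They were picked for being highest there, so only replicates 11 and 13 were free to differ in order. How many of all genes tested have this order was not counted. Among the 6 members Meis3, Hoxb13 and Pbx3 were called lower in the VC libraries. The other 11 stromal and endothelial markers summed to 6.50, 6.93 and 6.12 CPM in these replicates. The part of Tek in these values was not tested.

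**Figure D3:**
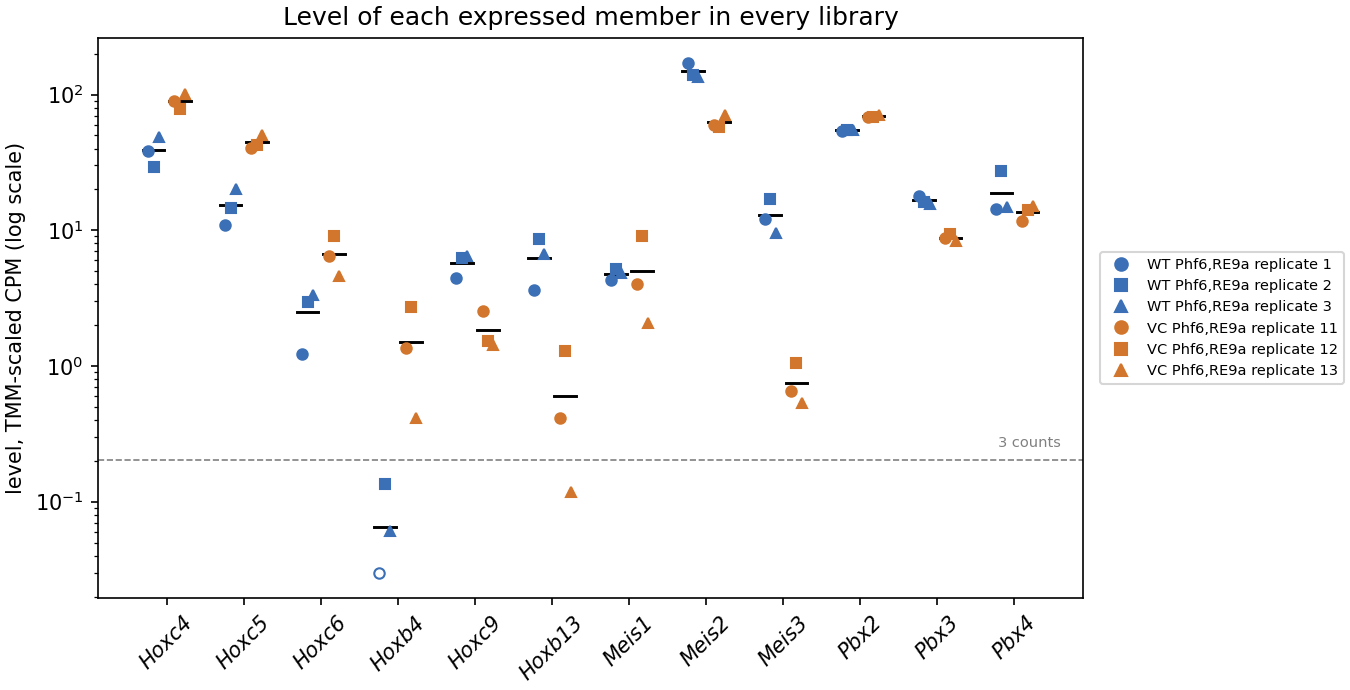
Level of the 11 tested members and Hoxb4 in each of the 6 libraries, in TMM-scaled CPM on a log axis, with blue symbols for WT Phf6,RE9a, orange for VC Phf6,RE9a, a symbol shape per replicate and a black bar at the group mean. An open symbol at the lower edge stands for a count of 0, and the dashed line is the highest level of 3 counts (0.204 CPM). The groups separate for all genes shown but Meis1 and Pbx4.

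PBX proteins are the partners shared by HOX and MEIS proteins. Of the PBX genes described, Pbx2 rose, Pbx3 fell and Pbx4 was not called.

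Pbx2, at chr17:34591266-34597400, was the steadiest member. Its counts were 829, 810 and 903 against 1158, 1178 and 1182, and the SD of its level was 1.08% of the mean in the WT libraries and 1.45% in the VC libraries. The shift from 54.5 ± 0.589 to 69.1 ± 1.00 CPM was small, with a log2 fold change of 0.34 (SE 0.074, edgeR adjusted p = 0.00773). An SD from so few libraries is a rough estimate. Counting error alone would give a larger spread at these counts, so these SDs are likely too low. In all, 58% of the genes tested had a larger change in either direction. Gpsm3 shares 6.2% of its exon bases on the same strand.

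Pbx3, known as a partner of HOXA9 and MEIS1 in leukemia, lies at chr2:34171457-34373142. It had 275, 239 and 259 counts in the WT libraries and 149, 160 and 140 in the VC libraries, without overlap. The level fell from 16.6 ± 1.13 to 8.81 ± 0.502 CPM, a log2 fold change of -0.91 (SE 0.15, edgeR adjusted p = 0.00221).

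Pbx4, at chr8:69832491-69872292 and best known from the testis, was not called. Its counts were 220, 400 and 245 against 199, 243 and 253, and the groups overlapped. WT replicate 2 was the highest library. The means were 18.8 ± 7.27 and 13.7 ± 1.70 CPM (log2 fold change -0.46, SE 0.27, edgeR adjusted p = 0.201). Without WT replicate 2 the log2 fold change was -0.10 (edgeR adjusted p = 0.654).

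**Figure D4:**
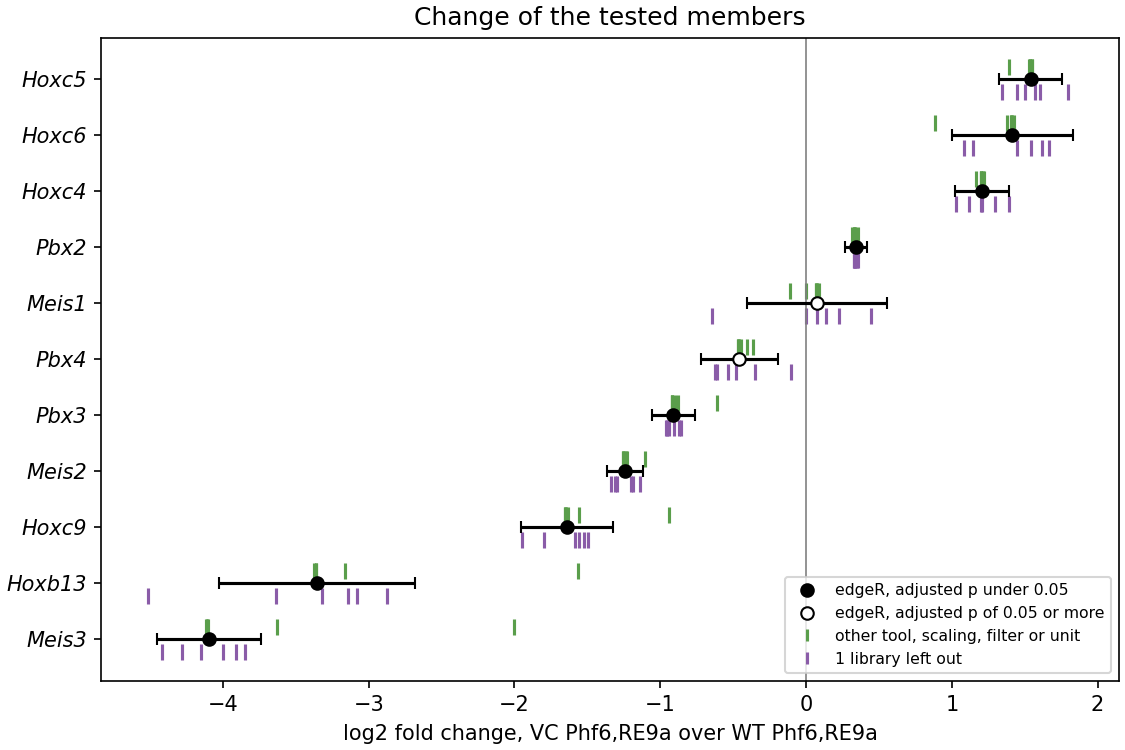
Log2 fold change of the 11 tested members, VC Phf6,RE9a over WT Phf6,RE9a, with SE bars from edgeR. Green ticks above each point are the values under another tool, scaling, filter or unit, and purple ticks below it are those with 1 library left out. Meis1 is the single member whose ticks lie on both sides of 0, and Meis3 and Hoxb13 have the widest range of ticks.

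Levels of different members were compared per kb of the deposited gene length. In WT Phf6,RE9a the order of the mean levels in CPM per kb was Hoxc4 (15.1 ± 3.76), Pbx2 (15.0 ± 0.162), Meis2 (12.3 ± 1.60), Pbx4 (8.46 ± 3.28), Hoxc5 (4.94 ± 1.53), Meis3 (4.06 ± 1.20), Hoxb13 (2.85 ± 1.12), Pbx3 (2.71 ± 0.186), Hoxc9 (2.35 ± 0.441), Hoxc6 (1.05 ± 0.467) and Meis1 (0.454 ± 0.0449). Neighbours in this order overlapped between libraries, except that Meis2 was below Pbx2, Hoxc6 below Hoxc9 and Meis1 below Hoxc6 in every library.

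In VC Phf6,RE9a the order was Hoxc4 (34.8 ± 4.25), Pbx2 (19.0 ± 0.276), Hoxc5 (14.4 ± 1.61), Pbx4 (6.16 ± 0.767), Meis2 (5.19 ± 0.577), Hoxc6 (2.79 ± 0.917), Pbx3 (1.44 ± 0.0822), Hoxc9 (0.752 ± 0.255), Hoxb4 (0.586 ± 0.455), Meis1 (0.479 ± 0.341), Hoxb13 (0.274 ± 0.274) and Meis3 (0.235 ± 0.0850) CPM per kb. Here the libraries of neighbours did not overlap between Hoxc4, Pbx2, Hoxc5 and Pbx4, nor between Meis2, Hoxc6, Pbx3 and Hoxc9. The other neighbours overlapped.

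Among all genes tested, the mean level of Hoxc4 per kb stood at percentile 72.9 in the WT libraries and 89.2 in the VC libraries, and that of Hoxc5 at 44.4 and 71.9. Meis3 went from percentile 40.1 to 5.7 and Meis2 from 67.7 to 46.3. Meis1 was low in both, at percentiles 11.3 and 11.7.

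Summed over the rows described, the Hox level was 26.5 ± 5.43 CPM per kb in the WT libraries and 53.8 ± 3.90 in the VC libraries. Hoxc4 made up 57.0% ± 9.36 and 64.5% ± 3.69 of it, Hoxc5 18.5% ± 2.54 and 26.7% ± 1.55, Hoxb13 10.9% ± 4.70 and 0.532% ± 0.550, and Hoxc9 8.97% ± 1.52 and 1.41% ± 0.508. The Meis sum was 16.79 ± 1.89 and 5.91 ± 0.370 CPM per kb. Of it, Meis3 was 24.0% ± 5.93 in the WT libraries and 3.98% ± 1.42 in the VC libraries, and Meis2 was 73.3% ± 6.04 and 87.9% ± 7.08. These sums and shares are descriptions and were not tested.

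**Figure D5:**
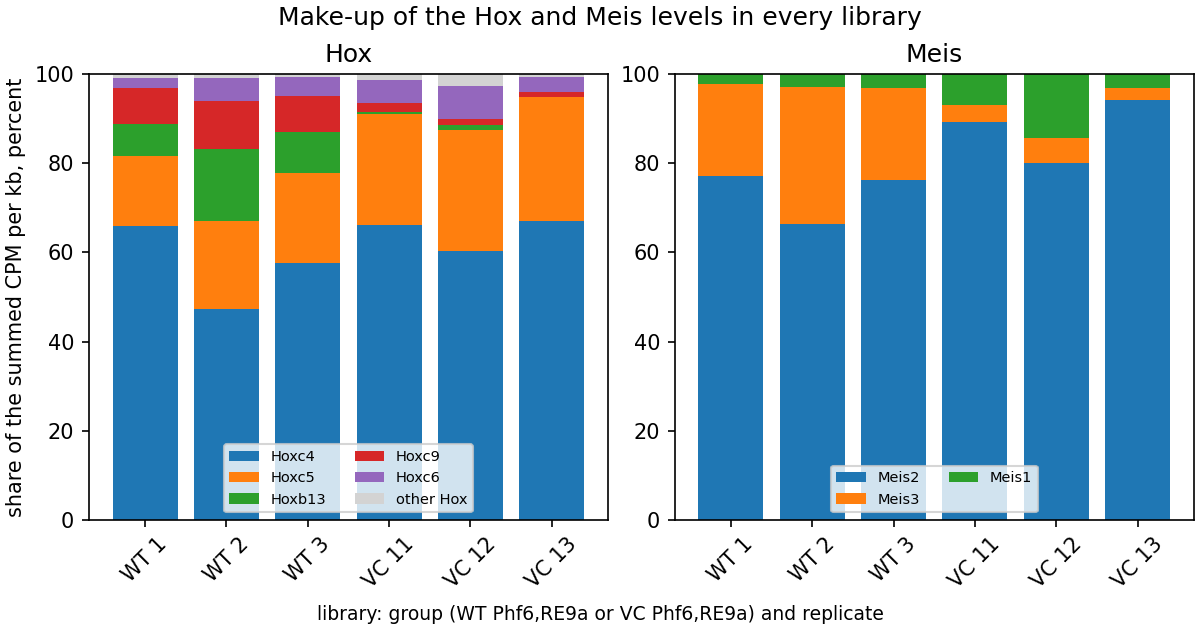
Share of the summed CPM per kb of the Hox rows and of the Meis rows taken by each gene, in percent, with 1 bar per library (WT and VC with the replicate number). Hoxc5 fills more of the Hox bars and Hoxb13 and Hoxc9 less of them in the VC libraries, the share of Hoxc4 overlaps between the groups, and Meis3 shrinks within the Meis bars.

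The TALE cofactors and PBX partners outside the 3 families numbered 12, of which 5 were tested. Mkx, a TALE repressor known from tendon, rose by a log2 fold change of 2.27 (SE 0.25, edgeR adjusted p = 0.000397). Tgif1, a TALE corepressor, fell by 2.85 on the log2 scale (SE 0.38, edgeR adjusted p = 0.000911), Pbxip1, which binds PBX, fell by 0.52 (adjusted p = 0.00603) and Pknox1, a MEIS-like PBX partner, by 0.48 (adjusted p = 0.0125), the last a call that was lost without VC replicate 11 (adjusted p = 0.0558). The median of the 5 was -0.48, and Irx1, Irx2, Irx4 and Irx6 were at 0 in every library.

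Of 28 upstream activators of Hox genes, 25 were tested, with 1 higher, 8 lower and a median log2 fold change of -0.09. Cdx1, Cdx2 and Cdx4, homeobox genes that switch on Hox clusters in the embryo, were at 0 in every library. Eaf1 and Aff4, partners in transcription elongation, both fell by 1.19 on the log2 scale (edgeR adjusted p = 0.00048 and 0.000507), and Ash2l, a subunit of MLL-type histone methyltransferases, by 0.59 (adjusted p = 0.00419). Hcfc1 was abundant and not called (log2 fold change 0.14, edgeR adjusted p = 0.350). The gene that rose was Mllt3, a reader of acylated histones (log2 fold change 2.09, edgeR adjusted p = 0.0242), a call that was lost without WT replicate 3 or VC replicate 11 or 13.

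Of 30 Polycomb genes, which repress Hox clusters, none was silent and 29 were tested, with 3 higher, 8 lower and a median of -0.16. Bmi1, a core subunit of Polycomb repressive complex 1, fell by 0.88 on the log2 scale (SE 0.091, edgeR adjusted p = 0.000278). Pcgf3, Cbx7 and Pcgf5, subunits of various forms of that complex, rose by 0.91, 1.15 and 0.42 (edgeR adjusted p = 0.000513, 0.00112 and 0.0295). The call of Pcgf5 was lost under 7 of 12 alternatives, namely no filter, both limma fits on FPKM and without WT replicate 2 or any 1 VC library (adjusted p up to 0.109). Among the most abundant, Rbbp4 was not called (log2 fold change 0.09, edgeR adjusted p = 0.452) and Asxl1 fell by 0.38 (adjusted p = 0.00455).

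Of 25 genes linked to the HOXA9 and MEIS1 program in leukemia, 22 were tested, with 8 higher, 13 lower and a median of -0.42. Of the 8, Sox4, Trib2, Dach1 and Igf1 held under 10 counts in each WT library. They passed the filter only through the VC libraries, where they were high. The numbers higher and lower therefore depend in part on the filter. Bcl2, an inhibitor of apoptosis, fell by 4.63 on the log2 scale (SE 0.25, edgeR adjusted p = 2.84e-05), and Cdk6, a cell cycle kinase, by 0.98 (adjusted p = 0.000131). Lmo2, a bridging factor of stem cell transcription complexes, rose by 1.88 (edgeR adjusted p = 8.62e-05) and Adgrg1 by 0.34 (adjusted p = 0.0327), a call that was lost in 5 of the 6 fits with 1 library left out, all but that without WT replicate 2 (adjusted p up to 0.107). The genes of this list moved both ways. Hoxa9 was at the limit of detection, and Meis1 was not called but had a wide error (SE 0.48). A link of this list to Hoxa9 or Meis1 was not tested.

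Of 47 other homeobox genes on a separate list, 24 were silent and 18 were tested, with 2 higher, 10 lower and a median of -0.81. Zhx3, Zeb2 and Hmbox1 fell by 1.58, 1.45 and 1.10 on the log2 scale (edgeR adjusted p = 0.000236, 0.000254 and 0.0003). Hhex, a blood and liver homeobox gene, was abundant and not called (log2 fold change -0.17, edgeR adjusted p = 0.236). The genes that rose were Satb1 (2.94, edgeR adjusted p = 0.00465) and Zhx1 (0.36, adjusted p = 0.0252), the latter lost without WT replicate 1 or VC replicate 12 or 13. Pknox1, Mllt3, Pcgf5, Satb1, Zhx1, Tek, Sox4, Trib2, Dach1, Igf1 and Mef2c were named after their values were seen.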

How the data were processed

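Total RNA of 6 libraries, 3 per group, was sequenced by the authors (TruSeq RNA kit, NovaSeq, paired ends). The deposited table holds read counts per Ensembl gene, FPKM values and the gene length in bases. The submitters' processing notes name Bowtie 0.12.0 and mm8 with no role, yet 98.33% of the 54409 rows with an identifier in GENCODE M21 had its GRCm38 start and end, so coordinates are given as GRCm38. The counting tool and its use of strand are not given in the sources used here. Columns with the authors' own comparison (mean counts, log2 fold changes and p-values) were not used. Genes were kept by filterByExpr and fitted with edgeR 4.0.16 (TMM, quasi-likelihood, 2-sided, R 4.3.3), with Benjamini-Hochberg adjustment over 14169 genes. CPM was TMM-scaled, and divided by the deposited length for levels per kb. Ratios of low members carry exact binomial intervals on the summed counts of each group, for counting error only. Fits were tested on simulated data. No libraries of a group agreed within sampling noise (chi-square 11.8 to 46.4 per gene). Alternatives were DESeq2 1.42.0, its size factors (RLE), other filters, limma 3.58.1 on log2(FPKM + 1 or 0.1) and leaving out each library. Every member was accounted for, and for other lists at most the 3 genes of smallest p and the 2 of highest level were named, with the exceptions stated. Of the 47 rows that the naming rule found, 2 are not reported here. The members and lists were chosen with earlier results of these data known.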

Additional observations from a re-analysis of the deposited data

How the results depend on the processing

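Direction and call of the tested members held under DESeq2, RLE size factors, no filter and both FPKM fits, except that Meis1, never called, turned to -0.0019 with limma on log2(FPKM + 1) and -0.11 with log2(FPKM + 0.1). With 1 library left out Meis1 ranged from -0.65 (VC replicate 12) to 0.45, and was -0.0025 when WT replicate 1 was dropped. Requiring 10 or more counts of a gene throughout left 3 members lower in place of 5, because Hoxb13 and Meis3 were then not tested, and limma on log2(FPKM + 1) gave -2.01 for Meis3 and -1.57 for Hoxb13, since a pseudocount compresses low values. With 1 library left out, 3 to 5 members were higher and 5 lower. The limits of the range came from Hoxc6 losing its call and Hoxb4 gaining one. Silent members numbered 24 to 34 under the other definitions and 30 to 31 with 1 library left out. Of the other lists, the same filter gave 2 upstream activators, 3 HOXA9-MEIS1 program genes and 1 other homeobox gene higher (1, 8 and 2 as reported). Under it the program genes Sox4, Mef2c, Trib2, Dach1 and Igf1 and the other homeobox gene Satb1 were not tested. No filter gave 4 other homeobox genes higher, and limma on log2(FPKM + 1) 5 program genes. Leaving out 1 library gave 0 to 2 upstream activators higher, with 2 without WT replicate 2 and 0 without VC replicate 11 or 13, and 5 to 9 lower, with 5 without VC replicate 12. The causes of the other shifts in the lists were not tested. No paired analysis was possible because the groups share no replicate number. The 4 members between 3 counts and the filter had wide ratio intervals. Depth limited Hoxa7, Hoxa9 and Hoxc8. Hoxb4 was kept out by its low counts in VC replicate 13 (7 counts) and in the WT libraries.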
